A study of Mus musculus with 11 samples.

Results

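The collagens, laminins, basement membrane proteins and integrins were examined as 1 gene set in primary neurospheres, free-floating clusters grown from neural stem cells, made from mouse embryonic brain. Members were every row of the expression table whose symbol names a collagen chain, a laminin chain or an integrin subunit, together with Nid1, Nid2, Hspg2, Agrn, Fn1 and Dag1. Binding partners with similar symbols were left out (Col4a3bp, Itgb1bp1, Itgb1bp2, Itgb3bp and Itgbl1). The rule gave 88 genes of 53453 rows, of which 32 reached at least 1 TPM (a transcript level scaled for length and library size) in 5 or more of 11 libraries and were tested, among 13549 tested genes in all. The 5 libraries of the first group came from embryos with Klf5 overexpression and the 6 of the second from control embryos with no treatment, all at stage E15.5. The sources used here do not give how Klf5 was overexpressed, the strain, or whether control embryos carry any allele. No pooling of embryos is named, and each library was taken as 1 embryo.

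Basement membranes are thin sheets of extracellular matrix that lie against cells. Laminins, trimers of an alpha, a beta and a gamma chain, form the sheet at the cell surface, type IV collagen forms a second network, and nidogens, perlecan (Hspg2) and agrin (Agrn) join or coat them. Integrins, pairs of an alpha and a beta subunit, and dystroglycan (Dag1) hold cells to these sheets. In the developing brain, radial glia touch a basement membrane at the pial surface, and laminin and integrins are also found near the ventricle, where neural stem cells divide. Klf5 belongs to the Kruppel-like transcription factors, which bind DNA through zinc fingers.

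Klf5 itself had 93.0, 91.4, 58.7, 82.1 and 53.6 TPM in the overexpression libraries, against 0.371 to 1.29 TPM in the control libraries (two-sided exact permutation p = 0.00433, the smallest that these splits allow). Sequencing depth is unknown, because TPM keeps none. The rows given summed to 784942 ± 35448 TPM with overexpression and 830176 ± 12101 TPM in controls (SD, n = 5 and 6), and overexpression library 5 was lowest at 730832. That library also held the lowest of the 5 overexpression values for 20 of the 32 tested members, and overexpression library 1 the highest for 13. All 11 neural progenitor markers on the list could be tested, and summed to 2865 to 4461 TPM with overexpression and 4353 to 7476 TPM in controls, with Fabp7 the largest at 2105 and 3596 TPM. In the mural and mesenchymal list, 11 of 15 genes stayed under 1 TPM in every library, and Dcn, Lum and Kcnj8 were at 0 throughout. Without Pdgfra, which oligodendrocyte progenitors also express, that list summed to 3.67 to 7.57 TPM with overexpression and 3.28 to 14.5 TPM in controls. Endothelial genes summed to 1.06 to 2.43 and 1.10 to 2.86 TPM, microglia and macrophage genes to 0.809 to 3.04 and 0.528 to 3.26 TPM, and epithelial and choroid plexus genes to 4.07 to 7.96 and 5.67 to 9.81 TPM, each with overexpression before control. Most of the epithelial and choroid plexus sum was Foxj1, with means of 5.10 and 7.82 TPM. The other 9 genes of that list stayed under 1 TPM in every library. In bulk RNA, fewer cells of a type and less RNA per cell cannot be told apart.

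With Klf5 overexpression 6 of the 32 tested members rose and 0 fell. The 6 were 4 collagen chains, Col18a1, Col9a3, Col5a3 and Col16a1, and 2 laminin chains, Lamb1 and Lama4. Their ratios of mean TPM ran from 1.82 for Col5a3 to 12.2 for Col18a1. The share of members called higher was 18.8%, where 2.29% of all tested genes were called higher and 1.43% lower (limma on log2(TPM + 1), Benjamini-Hochberg adjusted p under 0.05). With quantile normalization the split was 9 higher and 2 lower, where 421 of all tested genes were called higher and 311 lower. At an unadjusted p under 0.05, 13 members were higher and 5 lower, where the background shares were 5.84% and 6.72%. The median log2 difference was 0.17 over the 32 members and -0.04 over all tested genes. In 5 tested members every overexpression library lay above every control library (15.6%, against 1.99% of all tested genes), and in 0 tested members below (1.31% of all tested genes).

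**Figure D1:**
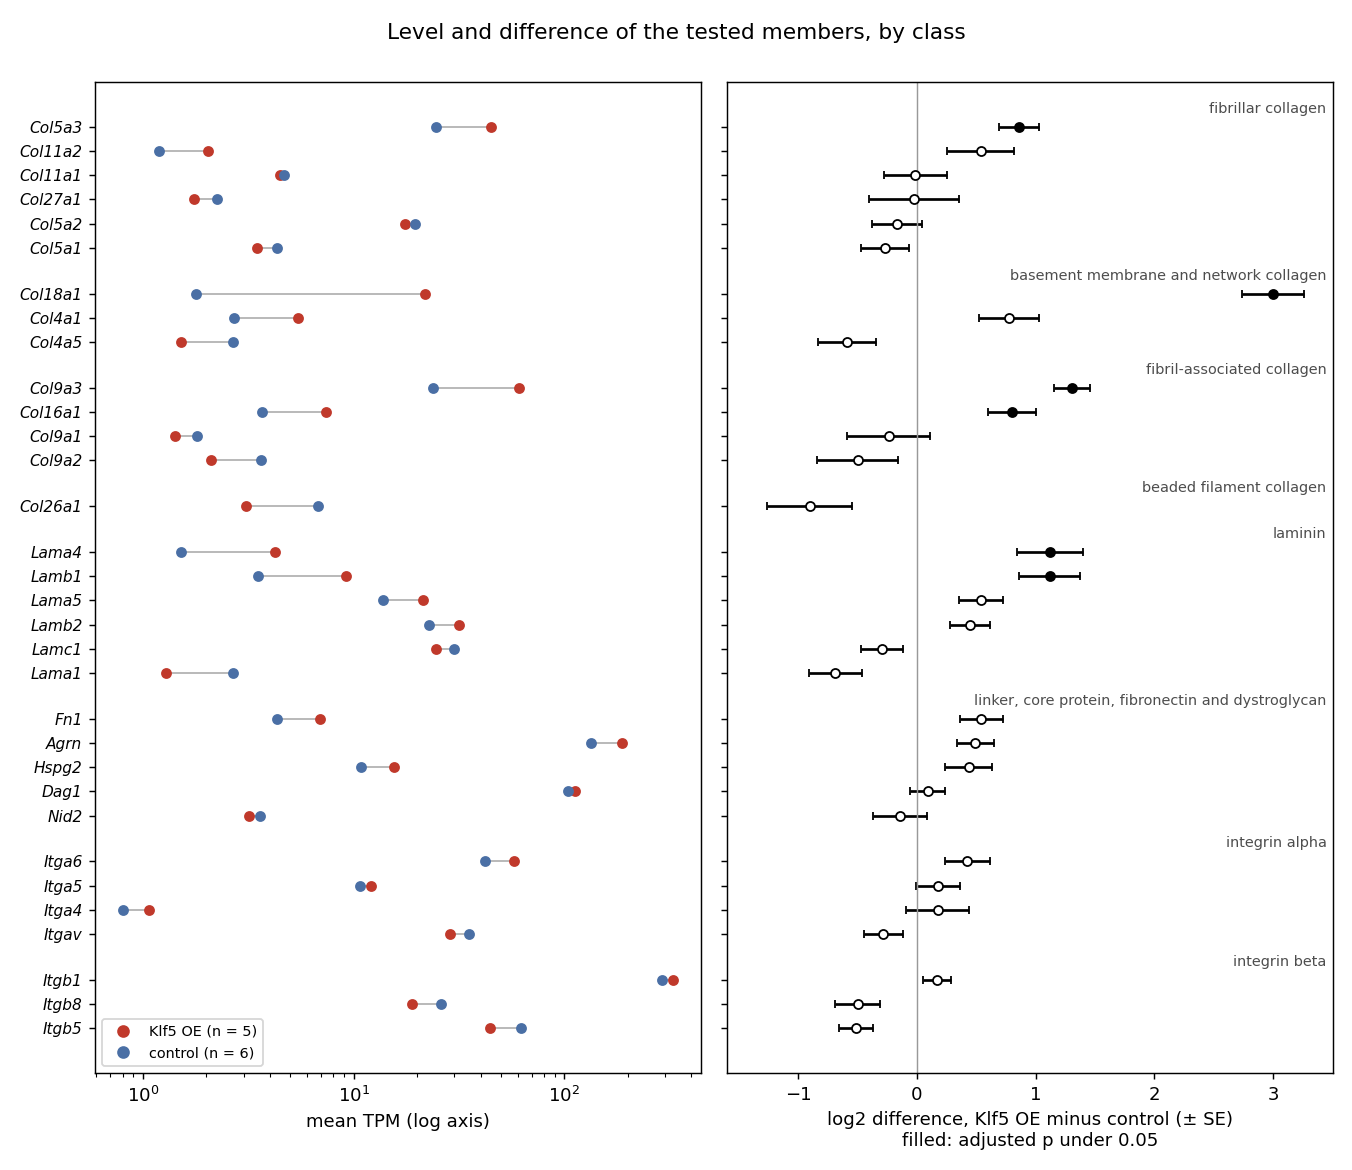
Left, mean TPM of each of the 32 tested members on a log axis, with Klf5 overexpression in red (n = 5) and control in blue (n = 6). Right, the log2 difference (overexpression minus control) with its SE, where filled points passed the test; the filled points are the 6 members that rose, with Col18a1 farthest right at 3.00.

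Collagen XVIII showed the largest difference of the 32 tested members. Col18a1 (ENSMUSG00000001435, chromosome 10, 77052178 to 77166548, minus strand, GRCm38) encodes a basement membrane collagen that carries heparan sulfate and whose C-terminal fragment is endostatin. It had 36.5, 24.7, 13.5, 16.7 and 17.3 TPM in the overexpression libraries, against a lowest of 0.954, a median of 1.50 and a highest of 3.51 TPM in the control libraries. The groups did not overlap, and the lowest overexpression library stood well above the highest control library, control library 1. The log2 difference was 3.00 ± 0.26 (SE; limma adjusted p = 3.56e-06), and it ranked 16 of 13549 genes by p.

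Collagen IX differed by chain. This collagen decorates fibrils in cartilage and the eye and is assembled from the products of Col9a1, Col9a2 and Col9a3. Col9a3 (ENSMUSG00000027570, chromosome 2, 180597790 to 180622189, plus strand) had 71.8, 57.2, 71.2, 59.4 and 44.2 TPM with overexpression, against 18.9, 23.3 and 31.6 TPM (lowest, median and highest) in controls. Every overexpression library exceeded every control library, and the log2 difference was 1.30 ± 0.15 (SE; limma adjusted p = 6.91e-05). Its partner chains were far lower in level: Col9a1 averaged 1.42 ± 1.21 TPM with overexpression and 1.80 ± 1.06 TPM in controls (SD, n = 5 and 6). Overexpression library 5, at 3.44 TPM, held the highest Col9a1 value, and the ratio of mean TPM was 0.789 with it and 0.507 without it. Col9a2 averaged 2.09 ± 1.09 TPM with overexpression, against 3.61 ± 2.53 TPM in controls. Neither Col9a1 nor Col9a2 passed the test (limma adjusted p of 0.901 and 0.664).

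Another fibril-associated chain, Col16a1 (ENSMUSG00000040690, chromosome 4, 130047840 to 130099283, plus strand), had 8.76, 10.6, 5.34, 7.56 and 4.68 TPM with overexpression, against 3.13, 3.69 and 4.02 TPM (lowest, median and highest) in controls. The groups did not overlap, although overexpression library 5 lay close to the highest control. The log2 difference was 0.80 ± 0.20 (SE; limma adjusted p = 0.0356). This call was lost when any 1 of overexpression libraries 1, 2 and 4 or control libraries 2 to 6 was left out; over all 11 such fits the adjusted p ran from 0.0137 to 0.109, highest without overexpression library 2. With no filter on low values it was lost too (0.0911).

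Among the fibril-forming collagens, Col5a3 (ENSMUSG00000004098, chromosome 9, 20770050 to 20815067, minus strand) was the one that rose. It encodes a chain of collagen V, which regulates the width of collagen fibrils. Col5a3 had 39.9, 47.7, 50.3, 51.2 and 35.4 TPM with overexpression, against 18.2, 23.3 and 33.1 TPM (lowest, median and highest) in controls. The groups did not overlap, and the gap between overexpression library 5 and control library 6 was small. The log2 difference was 0.86 ± 0.16 (SE; limma adjusted p = 0.00554). Col5a2, a second collagen V chain, had 17.6 ± 5.34 TPM with overexpression and 19.5 ± 4.69 TPM in controls (SD, n = 5 and 6), a difference of -0.17 ± 0.21 on the log2 scale that did not pass (limma adjusted p = 0.879) and was 0.015 without overexpression library 5. Col5a1, Col11a1, Col11a2 and Col27a1 had means between 1.19 and 4.67 TPM in both groups, and none passed. The main interstitial collagens were nearly silent: Col1a1 reached 1.48 TPM in overexpression library 1 and at most 0.422 TPM in controls, and Col1a2 and Col3a1 stayed at 0.261 TPM or less in every library.

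**Figure D2:**
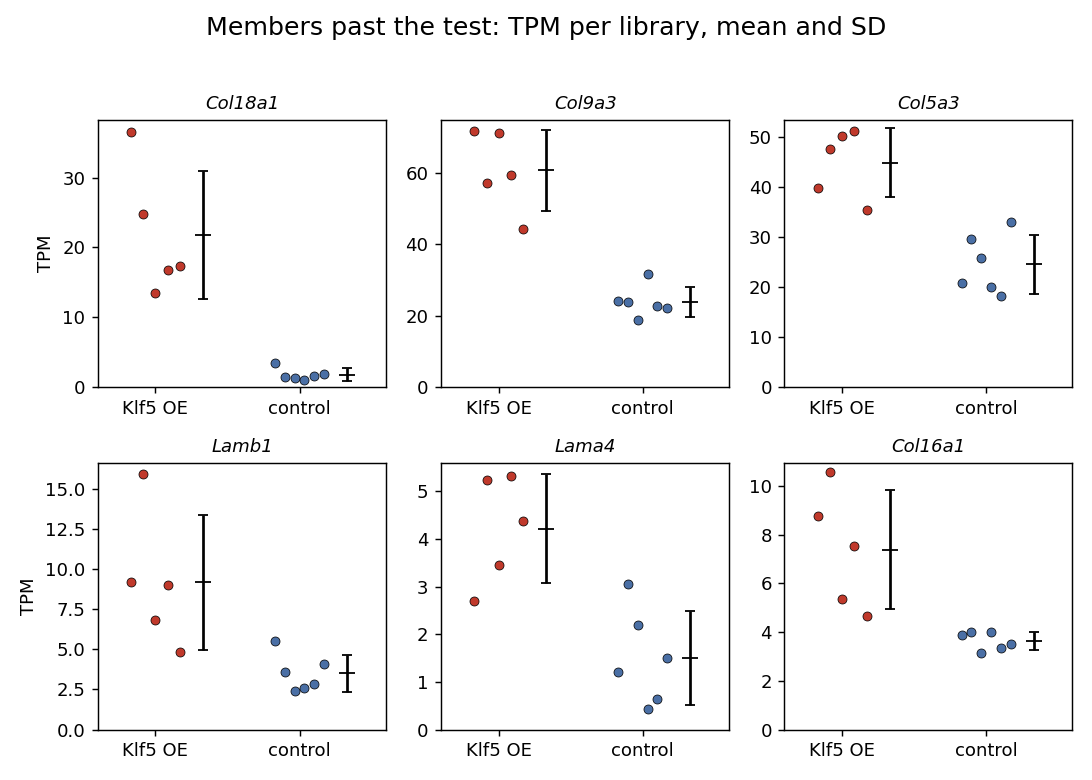
TPM per library of the 6 members that passed the test, with Klf5 overexpression (red, n = 5) left of control (blue, n = 6); bars give the mean and SD. Col18a1, Col9a3, Col5a3 and Col16a1 show no overlap between groups, and Lamb1 and Lama4 each have 1 overexpression library within the control range.

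Promoter sequence was listed in the RefSeq table for 23 of the 32 tested members and for 4 of the 6 that rose, all but Col9a3 and Lama4. The windows of 3 of these genes are shown because their transcripts rose together and because Kruppel-like factors bind GC-rich and CACCC-type letters. Each is the stretch upstream of the RefSeq start (build GRCm38.p6), cut off before the first annotated exon, 5′ to 3′ on the gene's strand. Windows that this cut left short, Col16a1 at 72 bases and a second Col18a1 promoter at 9, are not shown. Capitals mark matches to CCNCNCCC on either strand, where N is any base and neighbouring matches may overlap. The Col18a1 window is chr10:77166549-77166780 (minus strand, 232 bases), that of Col5a3 is chr9:20815068-20815317 (minus strand, 250 bases) and that of Lamb1 is chr12:31265043-31265233 (plus strand, 191 bases).
Col18a1: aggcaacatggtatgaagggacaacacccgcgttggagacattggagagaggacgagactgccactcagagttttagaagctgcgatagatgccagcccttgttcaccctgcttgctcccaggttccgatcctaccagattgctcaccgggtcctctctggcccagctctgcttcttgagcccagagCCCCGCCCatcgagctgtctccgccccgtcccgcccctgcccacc
Col5a3: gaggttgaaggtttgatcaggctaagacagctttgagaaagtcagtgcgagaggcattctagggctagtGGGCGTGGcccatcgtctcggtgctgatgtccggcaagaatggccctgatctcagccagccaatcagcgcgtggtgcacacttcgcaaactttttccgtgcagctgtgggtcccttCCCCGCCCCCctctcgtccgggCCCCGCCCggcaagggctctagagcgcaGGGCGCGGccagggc
Lamb1: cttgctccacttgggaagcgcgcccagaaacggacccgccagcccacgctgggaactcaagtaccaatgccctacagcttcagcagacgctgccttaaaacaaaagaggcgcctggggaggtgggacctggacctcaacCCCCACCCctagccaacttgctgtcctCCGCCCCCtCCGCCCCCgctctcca
Col5a3 held 5 matches, Lamb1 3 and this Col18a1 window 1. In windows of 250 bases, Col16a1 held 0 matches and the second Col18a1 promoter 1. The letters are common: 45.9% of all 32851 promoter windows in the table held a match, and so did 64.4% of those of the tested genes. Of the 27 windows of tested members, 22 held one (81.5%). Members that rose and members that were not called were alike in this, with 4 of 5 windows (80%) and 18 of 22 windows (81.8%). The GC box CCCGCCC, which can overlap CCNCNCCC, was in 3 of 5 and 12 of 22 of the same windows, or 55.6% of the 27 windows of tested members. It was in 23.4% of all windows, 43.7% of those of the tested genes and 52.5% of those of all genes called higher. A match in a window is a description of its letters.

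Collagen IV, the network former of basement membranes, was low in these cells. Col4a1 had 7.37, 4.24, 7.64, 5.00 and 2.85 TPM with overexpression, against 1.76, 2.39 and 4.36 TPM (lowest, median and highest) in controls. All 5 overexpression libraries lay above the control mean but 2 lay within the control range, and the log2 difference of 0.78 ± 0.25 (SE) did not pass (limma adjusted p = 0.129), although it did without overexpression library 5 (0.0478). Its partner Col4a2, which shares a start region with Col4a1 on the opposite strand, averaged 0.615 ± 0.191 TPM with overexpression and 1.03 ± 0.511 TPM in controls (SD, n = 5 and 6), too low to be tested. Exons of the pair overlap only in a short stretch at their starts, where Col4a1 ends at 11312826 and Col4a2 begins at 11312805. Reads from that stretch cannot be told apart if counting ignored strand. Col4a5 averaged 1.52 ± 0.713 TPM with overexpression and 2.67 ± 0.538 TPM in controls (SD, n = 5 and 6) and did not pass (limma adjusted p = 0.288). Col4a3, Col4a4 and Col4a6 stayed at 0.327 TPM or less. Col26a1 was the 1 tested gene of the beaded filament class of 8 and had 1.97, 0.986, 2.68, 4.13 and 5.59 TPM with overexpression, against 2.08, 7.19 and 12.02 TPM (lowest, median and highest) in controls. Its log2 difference of -0.90 ± 0.36 (SE) did not pass (limma adjusted p = 0.266). The collagen VI chains Col6a1, Col6a2 and Col6a3 did not exceed 0.329 TPM in any library.

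Laminin chains moved unevenly. Of 6 tested chains 2 rose, 0 fell, and the class median was 0.49 on the log2 scale. Lamb1 (ENSMUSG00000002900, chromosome 12, 31265234 to 31329644, plus strand), a beta chain, had 9.19, 15.9, 6.80, 9.03 and 4.86 TPM with overexpression, against 2.39, 3.22 and 5.52 TPM (lowest, median and highest) in controls. Overexpression library 5 fell within the control range, and the log2 difference was 1.12 ± 0.26 (SE; limma adjusted p = 0.02). The call was lost without overexpression library 2 (0.058), overexpression library 4 (0.0525) or control library 3 (0.0501), and without a filter on low values (0.0947).

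Lama4 (ENSMUSG00000019846, chromosome 10, 38965515 to 39110188, plus strand), an alpha chain typical of blood vessels and adipose tissue, had 2.70, 5.23, 3.46, 5.33 and 4.37 TPM with overexpression, against 0.442, 1.35 and 3.05 TPM (lowest, median and highest) in controls. Of the 5 overexpression libraries 4 lay above every control library, and the log2 difference was 1.12 ± 0.28 (SE; limma adjusted p = 0.0326). The call was lost when any 1 of overexpression libraries 2, 4 and 5 or control libraries 1, 4, 5 and 6 was left out, with an adjusted p of 0.0128 to 0.0948 over the 11 fits, highest without overexpression library 4. It was also lost with a pseudocount of 0.1 (0.0551) and without a filter on low values (0.131). In the endothelial list, 10 of 11 genes stayed under 1 TPM in every library. The other, Egfl7, averaged 1.04 TPM with overexpression and 1.26 TPM in controls (limma adjusted p = 0.949). A link between Lama4 and endothelial cells was not tested.

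The more abundant laminin chains did not pass. Lamc1, the common gamma chain, had 24.5 ± 6.18 TPM with overexpression and 30.1 ± 5.74 TPM in controls (SD, n = 5 and 6) (limma adjusted p = 0.577). Lamb2 had 35.2, 36.6, 28.3, 36.8 and 21.2 TPM with overexpression, against 16.3, 23.7 and 25.6 TPM (lowest, median and highest) in controls, so that 4 of 5 overexpression libraries exceeded every control. Its log2 difference of 0.45 ± 0.16 (SE) had a limma adjusted p of 0.201, or 0.0401 without overexpression library 5. The alpha chain Lama5, chosen after its values were seen like Lama1, had 32.3, 22.1, 17.3, 21.8 and 13.1 TPM with overexpression, against 12.1, 13.7 and 16.6 TPM in controls. Here too 4 of 5 exceeded every control; the log2 difference was 0.54 ± 0.19 (SE; limma adjusted p = 0.169, and 0.0331 without overexpression library 5). Lama1, the alpha chain of the earliest embryonic basement membranes, averaged 1.29 ± 0.454 TPM with overexpression and 2.69 ± 0.751 TPM in controls (SD, n = 5 and 6) (log2 difference -0.69 ± 0.22, SE; limma adjusted p = 0.13), and passed as lower with quantile normalization (0.044). Lama2, Lama3, Lamb3 and Lamc3 did not exceed 0.699 TPM in any library.

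**Figure D3:**
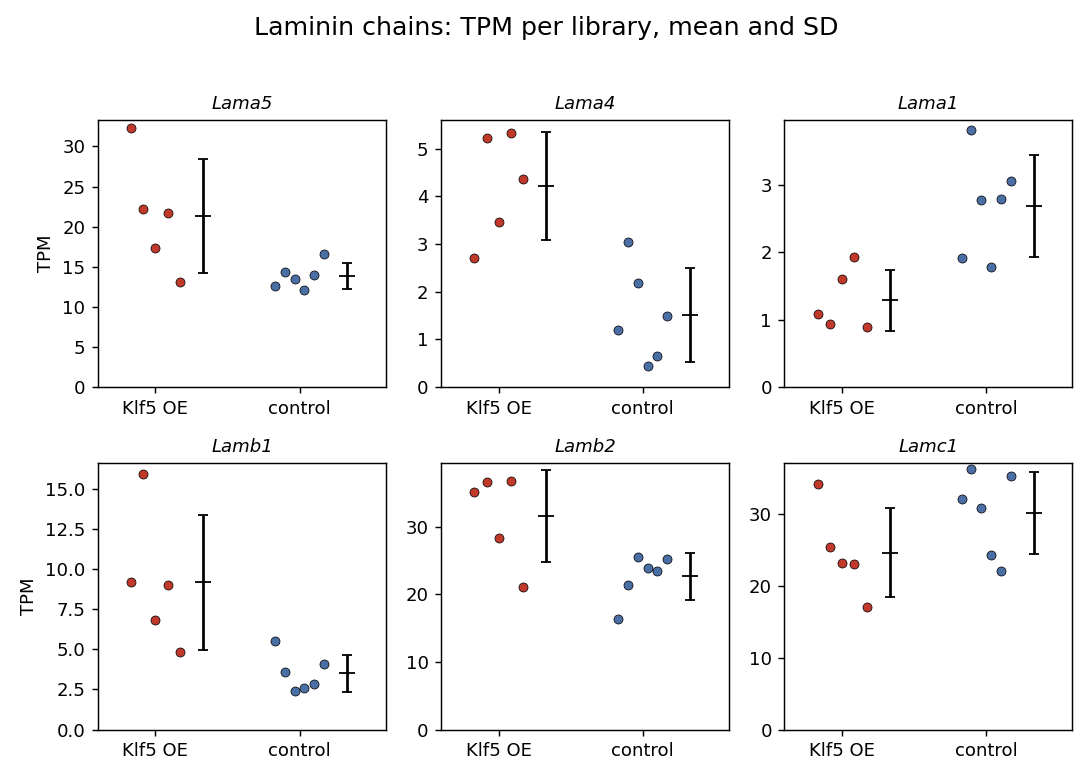
TPM per library of the 6 tested laminin chains, with Klf5 overexpression (red, n = 5) left of control (blue, n = 6); bars give the mean and SD. Lama4 and Lamb1 passed the test, and in Lamb2 and Lama5 overexpression library 5, the rightmost red point, is the 1 that lies among the controls.

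Of the linker and core proteins, fibronectin and dystroglycan, 0 of 5 tested genes passed in limma, and 3 were higher at an unadjusted p under 0.05. Agrn, the second most abundant member after Itgb1 and a heparan sulfate proteoglycan best known for clustering acetylcholine receptors at the nerve-muscle synapse, had 221, 189, 190.1, 204 and 133 TPM with overexpression, against 94.3, 139 and 161 TPM (lowest, median and highest) in controls. All but overexpression library 5 stood above every control. The log2 difference was 0.49 ± 0.15 (SE; limma adjusted p = 0.113), and it passed without overexpression library 5 (0.0263) and with each of 4 other scalings (0.00878 to 0.0287). Dag1, the matrix receptor dystroglycan, had 112 ± 23.2 TPM with overexpression and 104 ± 13.3 TPM in controls (SD, n = 5 and 6) (limma adjusted p = 0.912). Fn1, chosen after its values were seen like Hspg2, encodes fibronectin and had 6.89 ± 1.67 TPM with overexpression and 4.33 ± 0.378 TPM in controls (SD, n = 5 and 6). All 5 overexpression libraries, at 5.00 to 8.72 TPM, exceeded all 6 controls, at 3.94 to 4.77 TPM, yet the limma adjusted p was 0.136; it was 0.0436 with trimmed-mean scaling. Hspg2 (perlecan) had 15.46 ± 4.74 TPM and 10.8 ± 1.85 TPM in the same order (SD, n = 5 and 6) (limma adjusted p = 0.373). Nid2 averaged 3.19 and 3.58 TPM (limma adjusted p = 0.915), and Nid1 reached 1.47 TPM at most and was not tested.

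Integrin beta subunits were led by Itgb1, the shared partner of most matrix-binding alpha subunits. Itgb1 had 390.5, 297, 324, 375 and 259.7 TPM with overexpression, against 248, 292 and 312 TPM (lowest, median and highest) in controls. The groups overlapped, and the log2 difference of 0.17 ± 0.12 (SE) did not pass (limma adjusted p = 0.677). It made up 30.1% of the summed TPM of all 88 members with overexpression and 32.0% in controls.

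Itgb5 and Itgb8, which pair with Itgav to bind vitronectin and latent TGF-beta, had lower means with overexpression but did not pass. Itgb5 had 65.4, 39.3, 41.3, 42.0 and 34.9 TPM with overexpression, against 57.1, 63.0 and 67.9 TPM (lowest, median and highest) in controls. Of the overexpression libraries 4 lay below every control, while library 1 lay among them. The log2 difference was -0.51 ± 0.14 (SE; limma adjusted p = 0.0629); the adjusted p was 0.00253 without overexpression library 1 and 0.00751 with trimmed-mean scaling. Itgb8, chosen after its values were seen, had 23.1, 20.8, 25.4, 11.7 and 13.0 TPM with overexpression, against 23.1, 25.3 and 33.1 TPM in controls (limma adjusted p = 0.232). Itgav had 28.7 ± 5.33 TPM with overexpression and 35.3 ± 8.21 TPM in controls (SD, n = 5 and 6) (limma adjusted p = 0.578).

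Of the 4 tested alpha subunits 0 passed in limma, and 1 (Itga6) had an unadjusted p under 0.05. Itga6, the laminin-binding alpha subunit used as a neural stem cell surface marker, had 83.5, 44.4, 41.5, 57.8 and 59.9 TPM with overexpression, against 33.6, 37.5 and 59.5 TPM (lowest, median and highest) in controls. The ranges overlapped widely, and the log2 difference of 0.42 ± 0.19 (SE) had a limma adjusted p of 0.352. Itga5, the fibronectin receptor subunit, had means of 12.1 and 10.7 TPM, and Itga4 1.06 and 0.801 TPM, with overexpression before control. The leukocyte subunits Itgal, Itgam, Itgax, Itgad and Itgb2 stayed at 0.157 TPM or less in every library.

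Itgb4 lay just outside the expression filter, with at least 1 TPM in 4 libraries, as Itga4 lay just inside it with 5. Itgb4 pairs with Itga6 and anchors epithelial cells to laminin through hemidesmosomes. It had 2.16, 3.25, 2.43, 1.53 and 0.858 TPM in the overexpression libraries, against 0 TPM in 2 control libraries and 0.16 TPM at most in the other 4. The groups did not overlap, and 3.25 TPM was the highest value of any untested member. Fitted without a filter on low values, its log2 difference was 1.47 ± 0.19 (SE; limma adjusted p = 0.00287), where 1.24% of 28101 genes were called. The basal keratins Krt5 and Krt14 were at 0 in every library. The hemidesmosomal collagen Col17a1, too low to be tested, was at 0 in every control library. With overexpression it was above 0 in 4 of 5 libraries, at 0.14 TPM at most. The tetraspanin Cd151, another hemidesmosome component, averaged 28.5 TPM with overexpression and 20.3 TPM in controls.

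**Figure D4:**
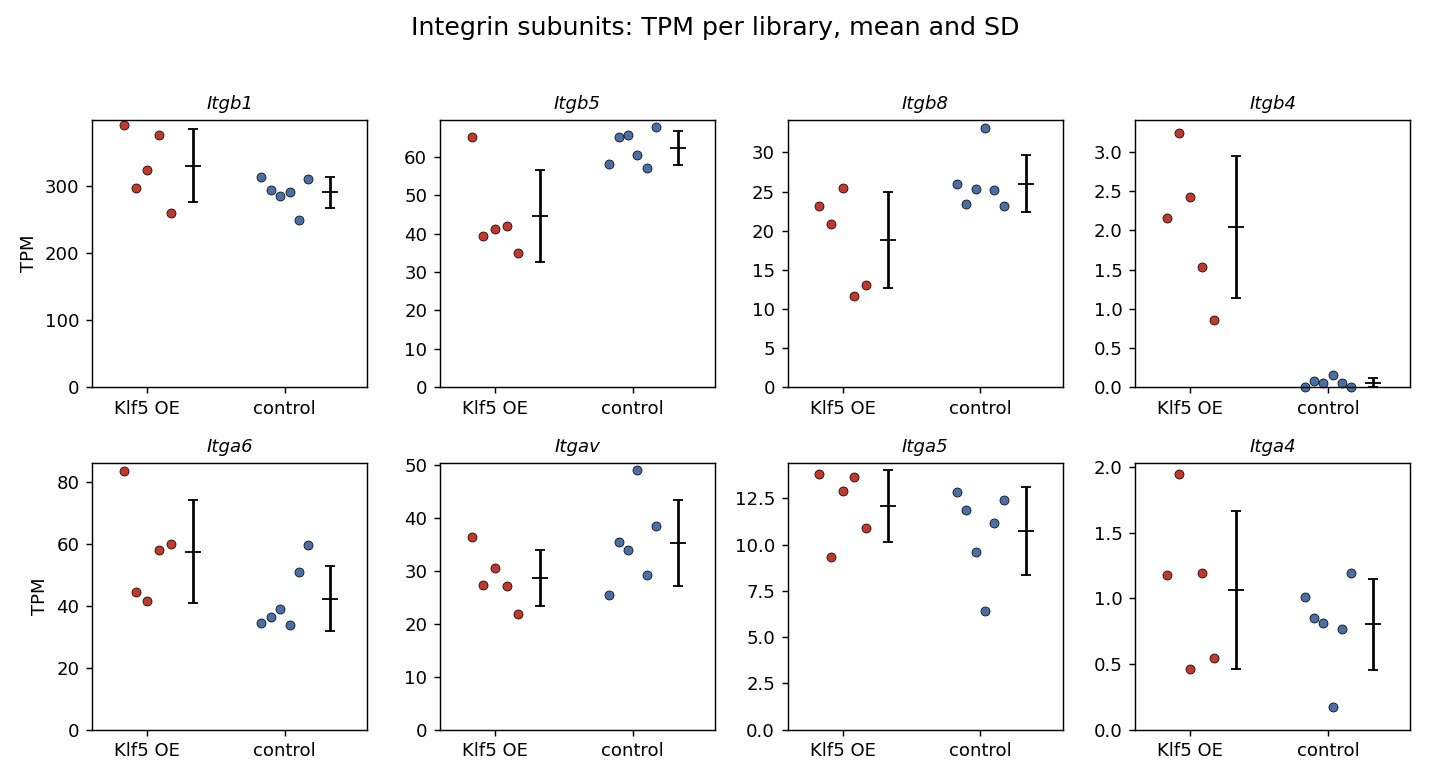
TPM per library of the tested integrin subunits and of Itgb4, with Klf5 overexpression (red, n = 5) left of control (blue, n = 6); bars give the mean and SD. Only in Itgb4 among these 8 do the groups not overlap, at no more than 3.25 TPM; in Itgb5 the leftmost red point, overexpression library 1 at 65.4 TPM, stands apart from the other 4.

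The remaining members were low. Of the 56 untested members, 6 reached 1 TPM in any library (Itgb4, Col28a1, Col4a2, Col1a1, Nid1 and Itga2b) and 2 were at 0 in all 11 (Col8a1 and Itgb2l). None of the 32 tested members passed the filter through 1 group alone, and 22 of them had at least 1 TPM in all 11 libraries. In control libraries 3 members averaged above 100 TPM (Itgb1, Agrn and Dag1), 12 between 10 and 100 TPM, and the other 17 tested members 10 TPM or less. Summed over all 88 genes, the set held 1097 ± 182 TPM with overexpression and 909 ± 66.9 TPM in controls (SD, n = 5 and 6). Overexpression library 5, at 832.5 TPM, fell within the control range of 827 to 1015 TPM, and the other 4 lay at 1072 to 1335 TPM. These sums are of TPM without further scaling. The trimmed-mean scaling factor, the typical level of a library's expressed genes relative to the others, differed by library. It was lowest in overexpression library 5 (0.817), highest in overexpression library 1 (1.155) and between 0.916 and 1.11 in controls. By class, basement membrane and network collagens took 2.69% of the set's summed TPM with overexpression and 0.982% in controls, and fibril-associated collagens 6.62% and 3.72%. Integrin beta subunits took 36.0% and 41.7%, and laminins 8.37% and 8.21%. Single genes weighed heavily in the collagen shares. Col18a1 held 21.8 of the 29.9 TPM of its class with overexpression and 1.79 of 8.83 TPM in controls. Col9a3 held 60.75 of 72.2 TPM of the fibril-associated class with overexpression and 23.9 of 33.8 TPM in controls.

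Genes that work with these proteins were counted in 6 lists. The background for all 6 is that 2.29% of all tested genes were called higher and 1.43% lower, with a median log2 difference of -0.04. In collagen processing 1 of 20 tested genes rose, 0 fell, and the median log2 difference was 0.06. The riser was Colgalt2, a galactosyltransferase that glycosylates collagen, at 11.8 ± 4.11 TPM with overexpression and 4.77 ± 0.692 TPM in controls (SD, n = 5 and 6) (limma adjusted p = 0.00514). Dystroglycan glycosylation and complex genes had 0 of 22 called in limma, with 2 higher and 3 lower at an unadjusted p under 0.05 and a median of -0.08. At that unadjusted p, 5.84% of all tested genes were higher and 6.72% lower.

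Adhesion partners of integrins had 4 higher and 1 lower among 25 tested, with a median of 0.05. Parvb, a parvin that links integrin-linked kinase to actin, had 6.78, 14.1, 12.8, 16.8 and 9.32 TPM with overexpression, against 0.772 to 2.87 TPM in controls (log2 difference 2.20 ± 0.25, SE; limma adjusted p = 4.72e-05). Tns2, a tensin of focal adhesions, averaged 15.3 and 5.02 TPM, and the tetraspanin Cd9, which associates with integrins, 167 and 68.5 TPM, with overexpression before control (limma adjusted p of 0.00107 and 0.00118). In each of these 3 genes all overexpression libraries exceeded all controls. The other two called members, named after their values were seen, were the kindlin Fermt2 at 132 and 93.2 TPM and the actin crosslinker Actn1, which fell, at 3.62 and 7.70 TPM. The Actn1 call was lost with no filter on low values. The Fermt2 call was lost when overexpression library 1, 3 or 4 or control library 1, 3 or 5 was left out, with an adjusted p of 0.0142 to 0.0768 over the 11 fits.

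The list of other basement membrane components also held elastic fibre proteins such as Emilin1. It had 4 higher and 2 lower among 15 tested, with a median of -0.02. Hmcn1, the large matrix protein hemicentin, had 19.2, 22.0, 10.5, 13.8 and 8.31 TPM with overexpression, against 0.803 to 1.92 TPM in controls, a 10.0-fold ratio of means (log2 difference 2.62 ± 0.25, SE; limma adjusted p = 9.16e-06). Emilin1, an elastic fibre glycoprotein, fell to 1.98 ± 0.784 TPM with overexpression, against 5.88 ± 1.43 TPM in controls (SD, n = 5 and 6; limma adjusted p = 0.00484). Fbln1, a fibulin, fell to 34.7 ± 5.87 TPM against 51.2 ± 4.37 TPM in controls (limma adjusted p = 0.0188), and lost its call without overexpression library 2 (0.0547) or control library 3 (0.0526). The others called, named after their values were seen, were Ltbp4, Fbln2 and Fbn2, with log2 differences of 0.72, 0.52 and 1.00. Their calls were lost in 3, 7 and 6 of the 11 fits that left out 1 library, and each had its highest adjusted p without overexpression library 4 (0.0735, 0.0838 and 0.0825).

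Other integrin ligands had 1 higher and 2 lower among 10 tested, with a median of -0.31. Tgfb1, whose latent form is bound by Itgav integrins, had 3.61 ± 0.784 TPM with overexpression and 1.20 ± 0.337 TPM in controls (SD, n = 5 and 6) (limma adjusted p = 0.00642). Ccn1, a matricellular integrin ligand, fell to 1.62 TPM, against 4.45 TPM in controls (limma adjusted p = 0.00514). Vcam1, the ligand of the Itga4 integrins, had 4.44, 1.04, 0.839, 0.599 and 0.614 TPM with overexpression, against 1.66, 6.12 and 11.5 TPM (lowest, median and highest) in controls. Of these, 4 overexpression libraries lay below every control and library 1 lay among them. It fell in the test (limma adjusted p = 0.0246), but the call was lost when any 1 of overexpression libraries 2 to 5 or control libraries 1, 3 and 4 was left out, over a range of 0.00354 to 0.0732, and with no filter on low values (0.147). Among 11 tested collagen and laminin receptors outside the integrin family, 1 rose, the hyaluronan and matrix receptor Cd44 (log2 difference 1.59 ± 0.20, SE), and 0 fell; the list median was -0.06.

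**Figure D5:**
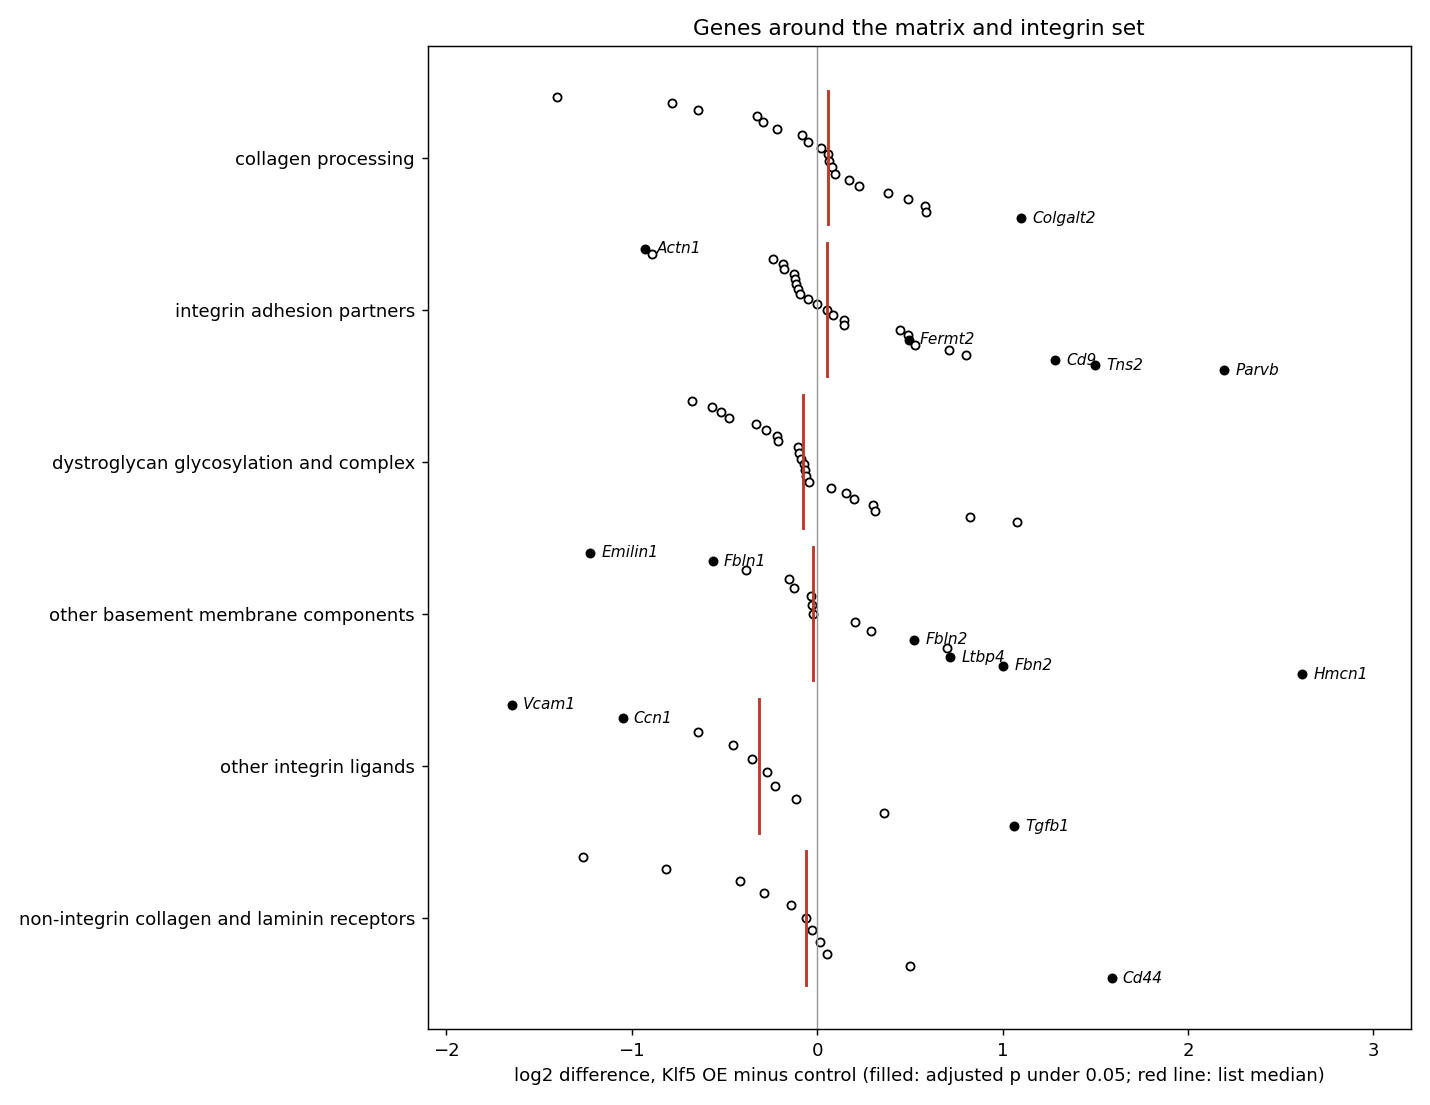
Log2 difference (Klf5 overexpression minus control) of each tested gene in the 6 lists of partner genes, 1 row per list, with genes spread down the row in order of difference; filled points passed the test and carry the gene's name, and red lines mark list medians. Hmcn1 lies farthest right at 2.62 and Vcam1 farthest left at -1.65, and list medians lie between -0.31 and 0.06.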

How the data were processed

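The deposited TPM values, 1 column per library in 1 table, were made by the authors; per the submitters' processing notes, the tools were DESeq2, HISAT2, HTSeq and StringTie and the build GRCm38.p5, with neither versions nor roles. Per the labels' protocols, 2 library kits are named, of which 1 keeps strand; the sources used here do not give the strand setting. Columns were matched to samples by library number. The members and gene lists were chosen with earlier results of these data known.

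Of 53453 rows, 53255 matched a symbol. A symbol shared by rows stayed with 1 of them, protein-coding first. Mia3 was not analysed here. Genes that reached 1 TPM in 5 or more libraries were tested as log2(TPM + 1) with limma 3.58.1 (R 4.3.3), with a variance trend, no covariate and a two-sided p adjusted by Benjamini-Hochberg, called under 0.05 over all 13549 genes. Fold changes on this scale understate those of genes near 1 TPM. The fit was tested on simulated data. The permutation test used scipy 1.17.1, with the smaller tail doubled. The limma p-values set the difference between groups against the spread between libraries.

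Named members are those past the threshold and, in each of 9 classes, the 2 highest in controls and the 1 with the smallest p; lists add up to 3 called genes. Coordinates are from GENCODE M21 (GRCm38). Alternatives were another pseudocount, other filters, scalings and variance models, a replicate block, other thresholds and each library left out in turn.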

Additional observations from a re-analysis of the deposited data

Results flagged for a closer look

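Among 68 sets of values (the 32 tested members, Klf5 and Itgb4, in each group), 2 had a library far from the others, where chance gives about 1 in 20. Itgb5 had 65.4 TPM in overexpression library 1, and the next highest overexpression library had 42.0 TPM. Itgb8 had 33.1 TPM in control library 4, and the next highest control library had 25.9 TPM.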

How the results depend on the processing

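Col18a1, Col9a3 and Col5a3 were called higher in all 11 fits that each left out 1 library and in all 11 with other settings; Lamb1, Lama4 and Col16a1 were not. Members called higher numbered 3 to 9 and members called lower 0 to 1 with 1 library left out, 3 higher without overexpression library 2 or 4 and 9 without overexpression library 5. Trimmed-mean scaling gave 10 higher and 1 lower, and quantile normalization 9 and 2. Removal of ribosomal RNA-like and mitochondrial rows gave 9 and 1, and array weights 8 and 1. An adjusted p under 0.1 gave 1 lower. Over all tested genes, the same settings in this order called 443, 421, 410, 394 and 380 higher. They called 282, 311, 230, 242 and 285 lower. The lower members were Itgb5 and, under quantile normalization, Lama1. Medians over all genes moved by less than 0.1 on the log2 scale in these scalings, but single libraries moved more. Trimmed-mean factors ran from 0.817 (library 5) to 1.155 (library 1) with overexpression and from 0.916 to 1.11 in controls. Ribosomal RNA-like and mitochondrial rows held 13.9% (library 1) to 22.8% (library 5) of the listed sum with overexpression. In controls they held 16.4% to 23.7%. The cause of the differing counts was not tested.

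All genes called numbered 504 (310 higher, 194 lower); lower genes were 95 without a filter and 311 with quantile normalization, and a log2 difference of at least 1 left 272 (197 higher, 75 lower). With 1 library left out these were 386 to 496 in all, 235 to 344 higher and 123 to 213 lower, lowest for the lower genes without overexpression library 2 (123) and control library 3 (126). Genes of the 6 partner lists called lower numbered 5, or 3 without a filter, with the replicate block or with a log2 difference of at least 1, and 2 with a filter of 5 TPM; with 1 library left out 7 to 12 were higher (7 without overexpression library 1 or 4) and 3 to 6 lower (3 without overexpression library 2). Klf5 kept its call throughout, with a log2 difference of 5.27 to 5.47 with 1 library left out. With 1 library left out, the log2 difference of Col5a2 ran from -0.27 to 0.015, above 0 only without overexpression library 5. Those of Nid2 (-0.25 to 0.018), Col11a1 (-0.13 to 0.10) and Col27a1 (-0.22 to 0.24), none of them called, also took either sign.

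Deviations of libraries with the same replicate number in the labels correlated at 0.304, 0.0638, -0.013, -0.0398 and 0.0242 for numbers 1 to 5. Such correlations cannot show whether same-numbered libraries were prepared together, because libraries prepared together need not deviate alike. With the number as a replicate block on 10 libraries, 4 members were called higher, Lama4 and Col16a1 not among them, and the partner genes Actn1 (adjusted p = 0.078), Fbln1 (0.0567), Fermt2 (0.0559) and Fbln2 (0.107) lost their calls; only number 1 correlated best with its own. Unknown depth limits what can be said of members near 1 TPM.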
